A study of Mus musculus with 4 samples.

Results

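The mitochondrial carriers are the proteins of solute carrier family 25 (SLC25), which move metabolites across the inner mitochondrial membrane. Their RNAs were followed here in the pseudopodia and the cell bodies of NIH/3T3 cells, a mouse fibroblast line. Members were chosen by name: every probe set with 1 platform gene symbol that starts with Slc25a. This gave 93 probe sets of 44 genes among 45101 probe sets on the array. A further probe set, shared between Slc25a37 and Gm16867 in the annotation, was left out.

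All arrays came from serum-starved NIH/3T3 cells, with no genotype or transgene named in the labels. The cells were plated for 2 h on a fibronectin-coated porous membrane and exposed for 1 h to lysophosphatidic acid (LPA) at 150 ng/ml from below. LPA is a serum phospholipid that draws protrusions through the pores. After fixation in 0.3% formaldehyde, pseudopodia were scraped from the underside once the cell bodies had been wiped away, and cell bodies from the upper side in the converse way. There were 2 arrays of pseudopodia and 2 of cell bodies, numbered replicate 1 and replicate 2. Both fractions were stimulated, so nothing here compares cells with and without LPA, and the purity of each fraction rests on manual wiping. The samples are described as independent, without saying how cultures were separated. The p-values therefore measure only the spread between these arrays, which may be technical.

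Carrier proteins share a fold of repeated pairs of membrane helices and are encoded in the nucleus and made on cytosolic ribosomes. The ADP/ATP carriers export ATP in exchange for ADP, and the phosphate carrier supplies the phosphate from which ATP is made. Other members carry citrate, malate, oxoglutarate, aspartate, glutamate, ornithine, glutathione, cofactors, nucleotides, carnitine esters or iron. A few lie elsewhere: Slc25a17 is a peroxisomal carrier and Slc25a46 sits in the outer mitochondrial membrane. Mitochondria enter cell protrusions along microtubules, and some RNAs for mitochondrial proteins are translated at the mitochondrial surface.

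Values are the deposited MAS5 signals, in linear units, with the arrays already scaled to 1 trimmed mean. Median signals were 29.8 to 33.3 on the 4 arrays, and the number of arrays limits the precision. Differences are log2 of pseudopodia over cell body on the log2(value + pseudocount) scale, ± SE from limma, always with n = 2 arrays in each fraction. Because each array was scaled, a difference is relative to all RNA of its fraction. The absolute amount of an RNA in a fraction cannot be read from it. The fraction labels were checked on other genes. Neat1, a nuclear long noncoding RNA, differed by -2.17, and the brightest probe sets of Rab13, Kif1c and Pkp4, known protrusion RNAs, by 1.99, 2.14 and 2.06. The list of checks also held Malat1, another nuclear RNA, whose values are not given here. The check on nuclear RNA shown here therefore rests on Neat1. Of the 15 kept probe sets on the list, from 5 genes, 4 were higher and 1 lower, with 8 positive and 7 negative values. So not every probe set of these genes separated the fractions. Of 10 fibroblast marker genes, 8 had a probe set above the filter, and of their 18 kept probe sets 3 were lower and 0 higher, with a median of -0.35. Their summed signal ranged from 173068 to 177151 among cell body arrays and from 165990 to 176509 among pseudopodia arrays. The summed signal of 4 blood marker probe sets was 84.0 to 99.9 in cell bodies and 37.8 to 99.5 in pseudopodia. Only 1 of 4 blood, 5 of 7 epithelial and 1 of 10 adipocyte and muscle marker probe sets were kept, and none passed the test. That test compares the fractions, so it cannot show whether such cells were present. The sums of the epithelial list were 1251.6 to 1325.9 against 1015.8 to 1422.1. Those of the adipocyte and muscle list were 260.1 to 438.2 against 298.7 to 492.8. The ratio of 3' to 5' control signal of beta-actin, a sign of RNA integrity, was higher in pseudopodia, by 1.14-fold for the replicate 1 pair and 1.81-fold for the replicate 2 pair, and that of Gapdh by 1.05-fold and 1.06-fold. Their part in the results below was not tested.

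No carrier probe set passed the test between pseudopodia and cell bodies. The filter on dim probe sets kept 69 of the 93, from 36 genes, and 0 of these 69 were higher and 0 lower at an adjusted p under 0.05 (limma with Benjamini-Hochberg adjustment over all 22519 probe sets kept). Over the whole table, 1.08% of kept probe sets were called higher and 3.32% lower in pseudopodia, 4.4% in all. At an unadjusted p under 0.05 there were 8 higher and 4 lower carrier probe sets, 11.6% and 5.8% of the 69, against 8.66% and 13.3% of all kept probe sets (17.4% against 22% in both directions together). On data simulated with 200 of 22519 probe sets changed, 2.3% of those set 1 log2 unit apart were called, and 47.1% of those set 2 apart. The measured table had 990 calls, and with more calls the adjustment demands a less small p. These shares therefore do not give the power of the test on the carriers, which was not measured.

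The median over the 69 probe sets was 0.01, with values from -1.29 to 0.87, and the median over all kept probe sets was -0.03. Of the 69, 35 had positive values, or 50.7%, against 47.7% of all kept probe sets. Over all 93, kept or not, the median was 0.05, against 0.02 over all 45037 probe sets that are not controls. Taking each gene by its brightest probe set, 16 of 36 genes had positive values, with a median of -0.05, against 0.01 over all 10962 genes. Both pseudopodia arrays lay above both cell body arrays in 25 carrier probe sets, or 36.2%, against 24.7% of all kept probe sets. They lay below both in 14, or 20.3%, against 28.2% of all kept. Several of these probe sets share a gene, and no test was made of these shares. Together these are 39 carrier probe sets, or 56.5%, against 52.9% of all kept.

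The replicate number marks a shared experiment code and scan day, and a fit with that number as a block was run beside the first. With the replicate block 7 carrier probe sets were higher and 4 lower at an adjusted p under 0.05 in limma, against 6.84% and 11.3% of all kept probe sets (18.1% in all). The 7 were 1 of Slc25a3, 1 of Slc25a4, 2 of Slc25a5 and 3 of Slc25a39, and the 4 were 1 each of Slc25a27, Slc25a30, Slc25a32 and Slc25a51. This fit leaves 1 residual degree of freedom and rests mostly on the shared estimate of spread. Leaving out 1 array also moved the calls: 5 were higher and 6 lower without pseudopodia replicate 1, 0 and 1 without pseudopodia replicate 2, and 0 and 0 without either cell body array. Asking instead for a difference of 1.5-fold or more between every pseudopodia and every cell body array, 1 carrier probe set was higher and 3 were lower (2.79% and 7.86% of all kept probe sets).

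**Figure D1:**
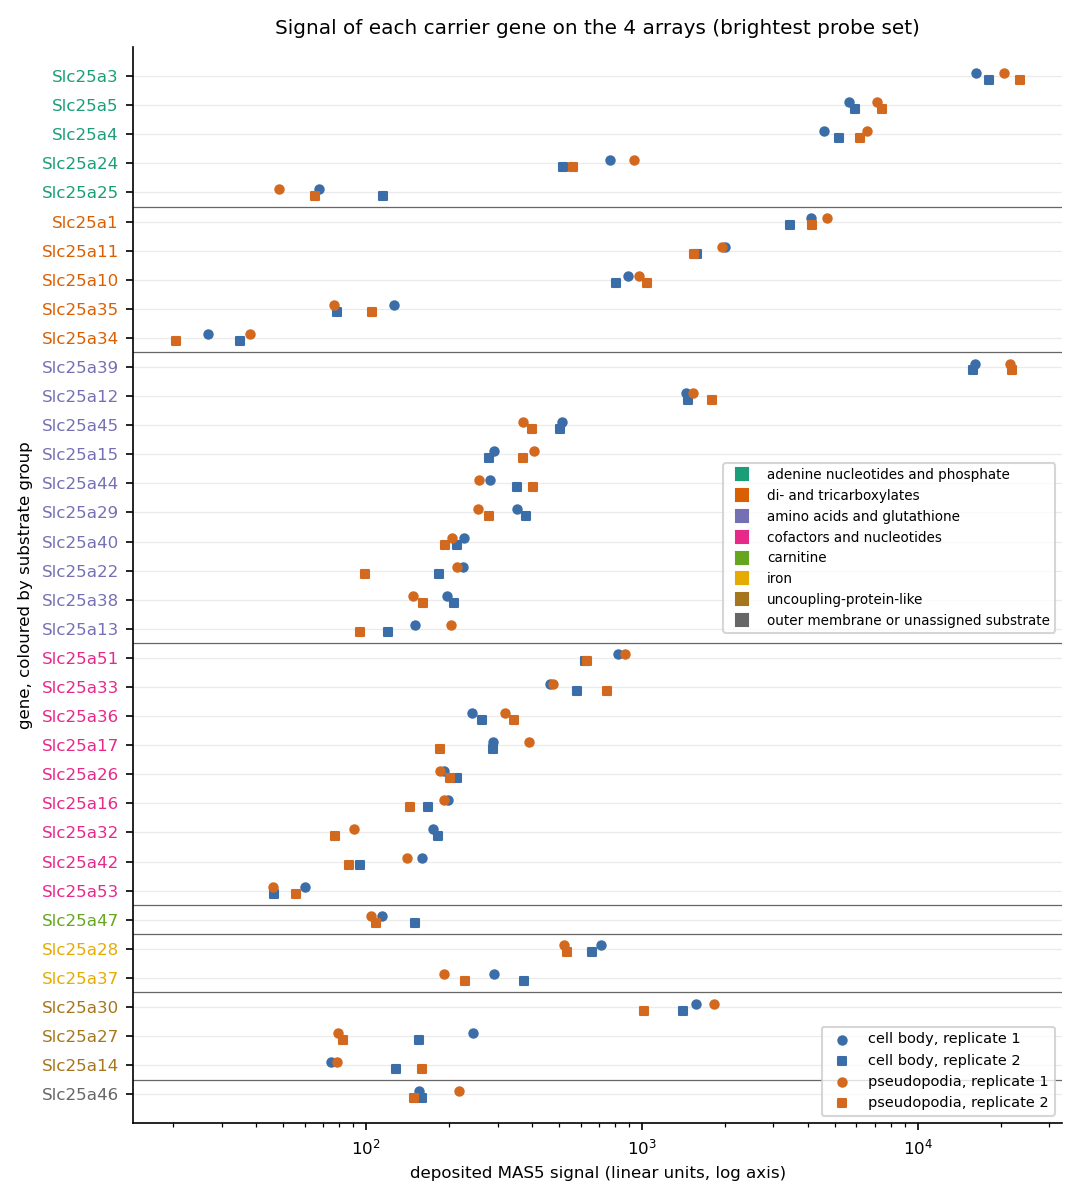
Deposited MAS5 signal (log axis) of the brightest probe set of each of the 36 carrier genes above the filter, with cell body arrays in blue and pseudopodia arrays in orange, circles for replicate 1 and squares for replicate 2. In Slc25a3, Slc25a4, Slc25a5 and Slc25a39 both orange points lie right of both blue points, and in Slc25a28, Slc25a37 and Slc25a32 they lie left.

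The carriers of ADP, ATP and phosphate held 11 of the 25 carrier probe sets in which both pseudopodia arrays lay above both cell body arrays. That pattern was seen in 24.7% of all kept probe sets, and its share among bright ones was not computed. Of the 16 kept probe sets in this group, from 5 genes, 13 had positive values, with a median of 0.30. Over all kept probe sets 47.7% were positive, with a median of -0.03. Among all kept probe sets with a mean signal of 3000 or above, where the brightest of this group lie, 75.5% were positive, with a median of 0.28. None passed the test, and the smallest adjusted p in the group was 0.149. Many of these probe sets belong to the same gene, so they are not independent counts.

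Slc25a3, the phosphate carrier, had cell body signals of 16301.2 and 18085.2 and pseudopodia signals of 20560.7 and 23466.2. The arrays did not overlap, and the fold was 1.28 in favour of pseudopodia (0.36 ± 0.14, limma adjusted p = 0.184, and 0.0319 with the replicate block). The 2 same-numbered pairs gave 0.33 and 0.38. A second, dim probe set of Slc25a3 was not kept, with signals of at most 27.3.

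Slc25a4 is the ADP/ATP carrier form best known from heart and muscle. Its brightest probe set, 1455069_x_at, had signals of 4558.4 and 5195.6 in cell bodies, against 6560.3 and 6180.0 in pseudopodia, without overlap. It differed by 0.39 ± 0.16 (limma adjusted p = 0.205). The suffix _x_at is explained below for Slc25a5, and here too signals of related transcripts could not be separated. The other 2 kept probe sets of Slc25a4 differed by 0.25 and 0.49, also without overlap, and the latter passed with the replicate block (adjusted p = 0.0283).

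Slc25a5, the widely expressed ADP/ATP carrier, had 8 kept probe sets, of which 7 had positive values, with a median of 0.30. The brightest of the Slc25a5 probe sets had signals of 5648.4 and 5914.6 in cell bodies, against 7107.5 and 7410.0 in pseudopodia, a fold of 1.25 (0.33 ± 0.15, limma adjusted p = 0.243). The values of Slc25a5 ran from -0.0046 to 0.81. At the upper end, probe set 1438922_x_at had signals of 358.9 and 531.3 in cell bodies, against 637.7 and 954.5 in pseudopodia (0.81 ± 0.29, limma adjusted p = 0.149, and 0.00723 with the replicate block). At the lower end, 1438545_at had 383.0 and 458.6 against 441.6 and 395.2, with overlapping arrays. Of the 8, 6 carry the suffix _x_at, which marks probe sets with probes that also resemble other sequences, so signals of related transcripts could not be separated from Slc25a5.

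Slc25a24 and Slc25a25, carriers of ATP-Mg and phosphate that calcium regulates, showed no common direction. The brighter probe set of Slc25a24 had 768.3 and 518.6 in cell bodies against 934.0 and 564.4 in pseudopodia, which differ more between replicates than between fractions. It differed by 0.20 ± 0.30, and the dimmer one by -0.40 ± 0.72. The 2 kept probe sets of Slc25a25 pointed in opposite directions, at -0.53 and 0.42.

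Slc25a39, a carrier needed for mitochondrial glutathione import, had positive values on all 4 kept probe sets. The brightest, 1439410_x_at, had signals of 16122.5 and 15896.8 in cell bodies, against 21627.3 and 21982.8 in pseudopodia. The arrays of each fraction were close together and far from those of the other fraction, at a fold of 1.36 (0.45 ± 0.12). Its limma adjusted p was 0.0840, and 0.00905 with the replicate block. The other 3 differed by 0.55, 0.49 and 0.25, with no overlap between fractions on any of them. Of its 4 kept probe sets, 3 carry the suffix _x_at. Slc25a40, a related glutathione carrier, stood at -0.13 ± 0.23. Its signals were 225.8 and 214.3 in cell bodies, against 205.3 and 194.1 in pseudopodia.

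The other amino acid carriers held both directions, and none passed. In Slc25a15, the ornithine carrier of the urea cycle, the brighter probe set had 291.7 and 279.1 in cell bodies, against 406.5 and 371.4 in pseudopodia, a difference of 0.43 ± 0.22 (limma adjusted p = 0.298). Slc25a12, the aspartate/glutamate carrier aralar of the malate-aspartate shuttle, differed by 0.19 ± 0.19 on its brightest probe set, and Slc25a13, its relative citrin, by 0.05 ± 0.35. Slc25a22, a glutamate carrier, stood at -0.43 ± 0.35, with 1 low pseudopodia array (99.5, against 183.9 to 224.6 on the others).

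Cell bodies lay above pseudopodia on both arrays in several of these carriers. Slc25a38, a glycine carrier needed for haem synthesis, had signals of 196.4 and 207.8 in cell bodies, against 147.5 and 160.8 in pseudopodia (-0.36 ± 0.23, limma adjusted p = 0.410). Slc25a45 had 514.5 and 506.5 against 370.4 and 399.7 (-0.39 ± 0.21, limma adjusted p = 0.318). Slc25a29, a carrier of basic amino acids, had 352.8 and 378.8 against 254.2 and 278.4 on its brightest probe set (-0.44 ± 0.22, limma adjusted p = 0.292), and its 5 kept probe sets ran from -0.44 to 0.13. Slc25a44, a carrier of branched-chain amino acids, stood at -0.38 on 1 probe set without overlap, but at 0.03 on its brightest.

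**Figure D2:**
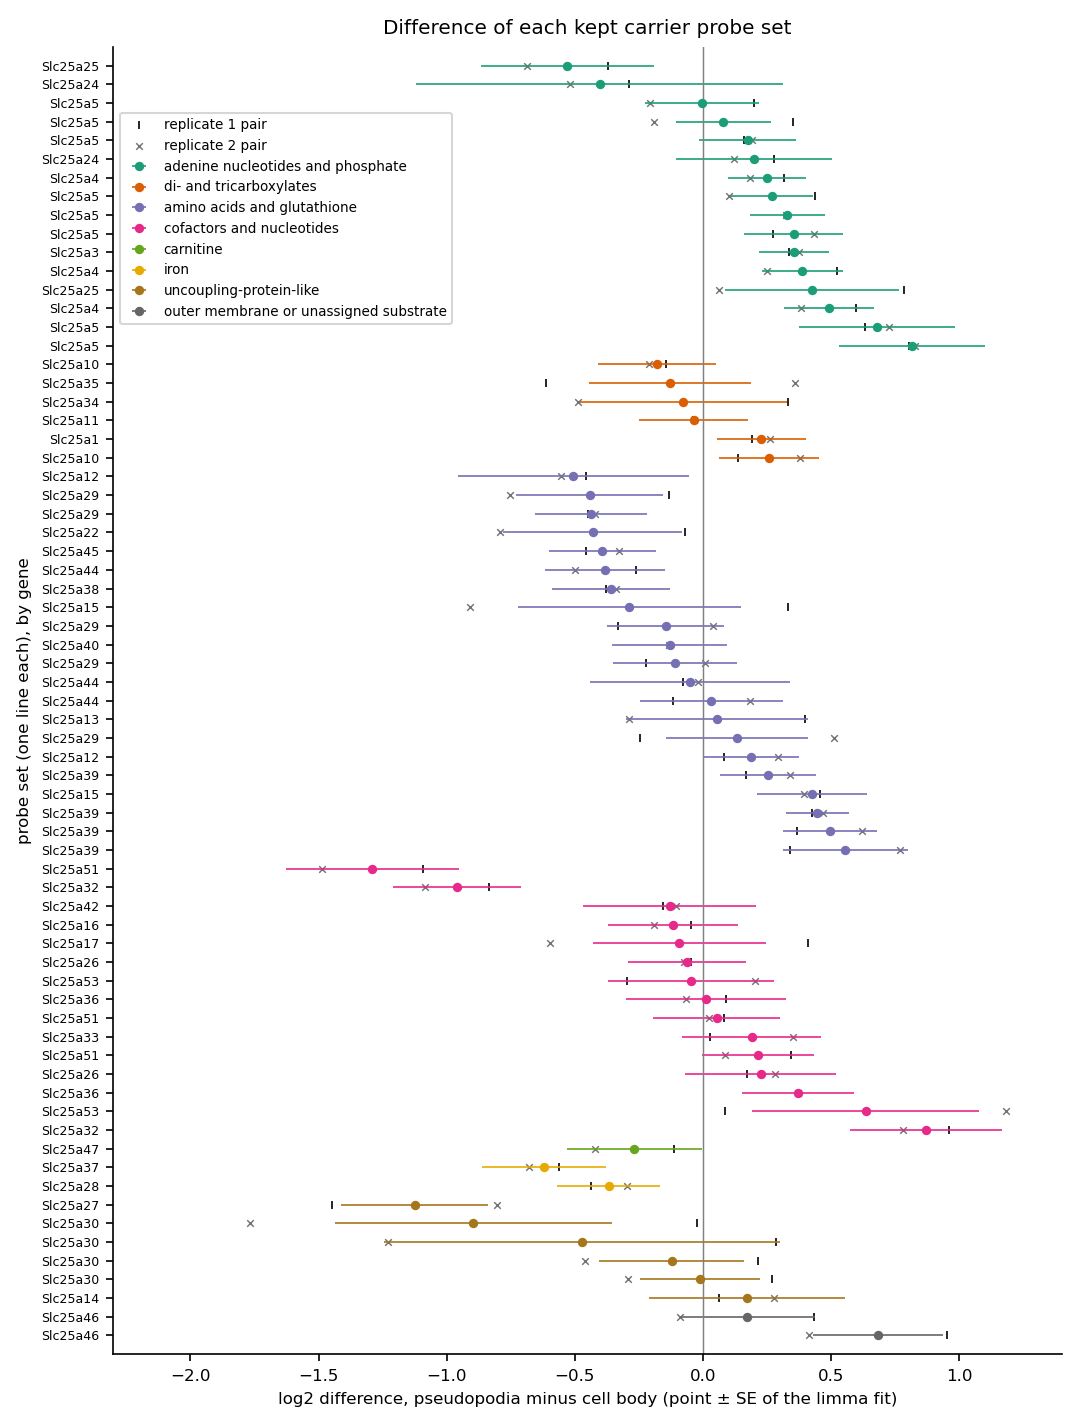
Log2 difference (pseudopodia minus cell body) of each of the 69 kept carrier probe sets, with the SE of the limma fit as bars, the 2 same-numbered pairs as ticks and crosses, and colours by substrate group. The values run from -1.29 to 0.87 and none passed the test.

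Carriers of citric acid cycle intermediates differed little. Slc25a1, the citrate carrier that supplies acetyl units for lipid synthesis, had 4104.6 and 3450.5 in cell bodies, against 4691.5 and 4137.3 in pseudopodia. This is a difference of 0.23 ± 0.17 (limma adjusted p = 0.498), and the arrays of the fractions just failed to overlap. Slc25a11, the oxoglutarate/malate carrier, had 2006.8 and 1583.8 against 1951.2 and 1547.0 and differed by -0.04 ± 0.21, so its signal followed the replicate and not the fraction. Slc25a10, the dicarboxylate carrier, differed by 0.26 ± 0.20 on its brighter and by -0.18 ± 0.23 on its dimmer probe set, each without overlap. Slc25a34 and Slc25a35 were dim, at -0.08 ± 0.40 and -0.13 ± 0.32.

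The carriers of cofactors and nucleotides held the widest disagreement between probe sets of a gene. Slc25a32 imports folate or a flavin. Its probe set 1453149_at had signals of 174.6 and 181.7 in cell bodies, against 90.7 and 77.3 in pseudopodia, a difference of -0.96 ± 0.25 (limma adjusted p = 0.0721, and 0.0180 with the replicate block). Its probe set 1435483_x_at had 38.2 and 48.3 in cell bodies, against 89.5 and 94.4 in pseudopodia, a difference of 0.87 ± 0.30 (limma adjusted p = 0.141). The fractions did not overlap on either probe set of Slc25a32, and the 2 values lie 1.83 apart. Both were at least 1.5-fold in every array pair.

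Slc25a51, the mitochondrial NAD carrier, showed a similar split. Probe set 1427425_at had 68.4 and 84.7 in cell bodies, against 23.6 and 19.9 in pseudopodia, a difference of -1.29 ± 0.34 and the lowest of all carrier probe sets (limma adjusted p = 0.0744, and 0.0270 with the replicate block). The 2 brighter probe sets of Slc25a51 differed by 0.05 ± 0.25 and 0.21 ± 0.22. On the brightest, signals were 819.4 and 621.8 in cell bodies, against 867.2 and 632.8 in pseudopodia, so the fractions overlapped. Which transcripts each probe set detects was not analysed here. Of the 17 carrier genes with at least 2 kept probe sets, Slc25a32 and Slc25a51 were the ones whose probe sets lay over 1 log2 unit apart.

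The other members of this group held both directions, and none passed the test. Slc25a36 and Slc25a33, pyrimidine nucleotide carriers, differed by 0.37 ± 0.22 and 0.19 ± 0.27 on their brightest probe sets. In Slc25a36 the signals were 243.0 and 262.7 against 318.6 and 344.3. Slc25a26, the S-adenosylmethionine carrier, stood at -0.06 ± 0.23, Slc25a42, a coenzyme A carrier, at -0.13 ± 0.34, and Slc25a16 at -0.12 ± 0.25. Slc25a17, the peroxisomal carrier, had 1 pseudopodia array above and 1 below both cell body arrays (390.0 and 185.2, against 289.4 and 288.0). Slc25a53, whose substrate is not given here, stood at -0.05 and 0.63 on 2 dim probe sets.

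Both iron carriers had lower signals in pseudopodia, although neither passed. Slc25a37, mitoferrin 1, had signals of 291.3 and 375.3 in cell bodies, against 192.3 and 228.4 in pseudopodia, a difference of -0.62 ± 0.24 (limma adjusted p = 0.191). Slc25a28, mitoferrin 2, had 711.3 and 660.0 against 520.6 and 533.9, a difference of -0.37 ± 0.20 (limma adjusted p = 0.333). Each is represented by 1 kept probe set, the fractions did not overlap on either, and both stayed below 0 under each scaling tried.

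Among carriers that resemble the uncoupling proteins, Slc25a27 had the largest difference. Its kept probe set had 243.8 and 155.6 in cell bodies, against 79.3 and 82.3 in pseudopodia, a fold of 0.46 (-1.13 ± 0.29). This was the smallest adjusted p of the family, at 0.0694 (limma, and 0.00799 with the replicate block). The other 3 probe sets of Slc25a27 had signals between 1.1 and 24.3 and were not kept.

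Slc25a30 depended on 1 array. Its probe set 1420835_at had 527.0 and 462.6 in cell bodies, against 517.9 and 124.4 in pseudopodia, so the pseudopodia array of replicate 2 alone was low. The replicate 1 pair differed by -0.02 and the replicate 2 pair by -1.77, for a difference of -0.90 ± 0.54 (limma adjusted p = 0.378, and 0.0435 with the replicate block). The same array was the lowest on the other 3 kept probe sets of Slc25a30, which differed by -0.12, -0.47 and -0.01. Its beta-actin 3' to 5' ratio was also the highest of the 4 arrays, at 3.41 against 1.55 to 1.89, and the part of this in the result was not tested. Slc25a14 had signals of 74.4 and 128.3 against 78.3 and 159.0 and followed the replicate (0.17 ± 0.38).

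**Figure D3:**
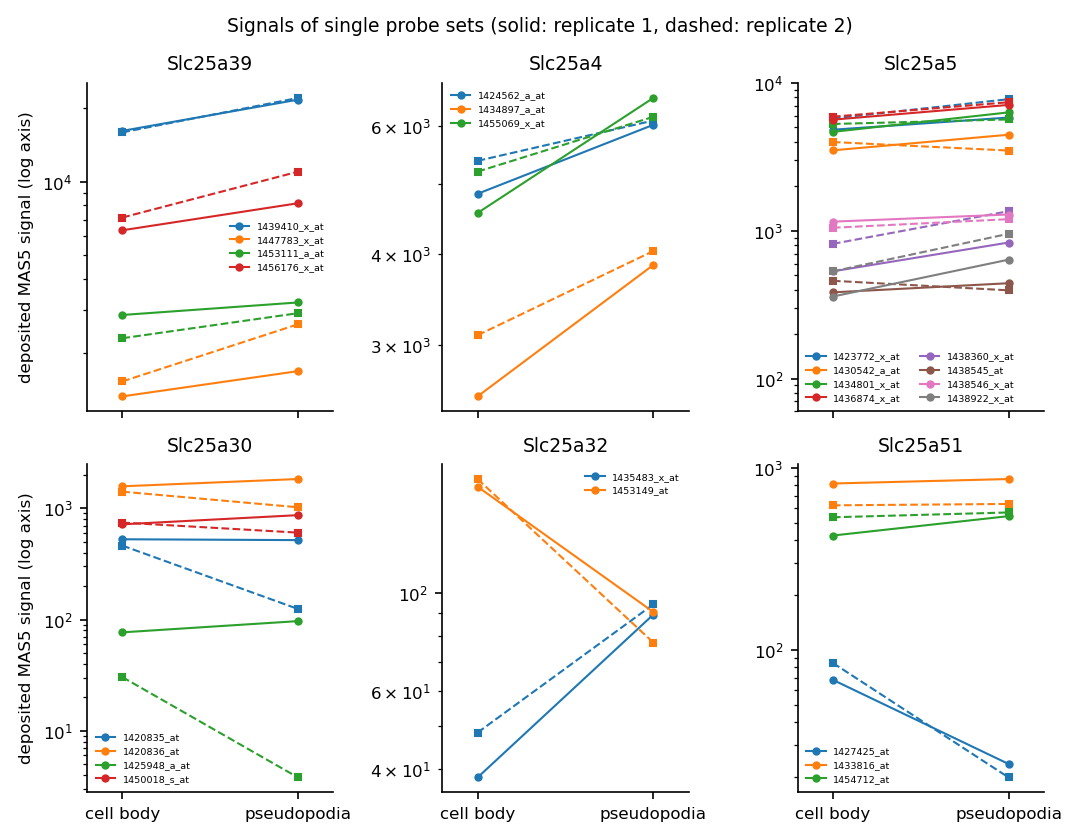
Deposited MAS5 signal (log axis) in cell body and pseudopodia of every kept probe set of 6 carrier genes, with a colour per probe set, solid lines for replicate 1 and dashed lines for replicate 2. All lines of Slc25a39 and Slc25a4 run upward, the 2 probe sets of Slc25a32 run in opposite directions, and in Slc25a30 the dashed lines run downward.

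Slc25a46, an outer membrane protein linked to mitochondrial fission and lipid traffic, had 2 kept probe sets. On 1418134_at the signals were 104.7 and 132.8 in cell bodies, against 217.4 and 182.3 in pseudopodia, a fold of 1.61 (0.68 ± 0.25, limma adjusted p = 0.170). On the brighter 1448970_at they were 156.3 and 159.9 against 216.8 and 149.3, with overlap (0.17 ± 0.26). Slc25a47, whose substrate is not given here, had 114.4 and 150.8 against 104.4 and 108.6 (-0.27 ± 0.26).

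The filter on dim probe sets removed 24 carrier probe sets, and left 8 genes with none. Signals on these 24 ran from 0.6 to 91.1, and the 8 genes were Slc25a2, Slc25a18, Slc25a20, Slc25a23, Slc25a31, Slc25a41, Slc25a48 and Slc25a54. Slc25a31, the ADP/ATP carrier known from testis, had signals of 0.6 and 1.0 in cell bodies, against 1.2 and 8.9 in pseudopodia. Slc25a20, the carnitine/acylcarnitine carrier of fatty acid oxidation, had 13.7 and 12.6 against 34.4 and 26.8 on its brighter dim probe set. Neither of its 2 probe sets entered the test.

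Among carriers the share of positive values was highest in the brightest range of signal, and over the whole array too. All 11 carrier probe sets with a mean signal of 3000 or above had positive values, with a median of 0.35. They come from Slc25a1, Slc25a3, Slc25a4, Slc25a5 and Slc25a39. Of all 1505 kept probe sets in that range, 75.5% had positive values, with a median of 0.28. Between 300 and 3000, 13 of 21 carrier probe sets were positive, with a median of 0.17, against 47.6% and -0.03 over all 7193. Under 300, 11 of 37 were positive, with a median of -0.13, against 44.7% and -0.07 over all 13821. These ranges were chosen after the values were seen. After quantile normalization, which gives the arrays 1 distribution of signals, the 16 kept probe sets of Slc25a3, Slc25a4, Slc25a5 and Slc25a39 had a median of 0.17 in place of 0.35. Slc25a3 then stood at 0.03 and the brightest probe set of Slc25a39 at 0.10. Scaling on the hybridization controls moved the median of all kept probe sets from -0.03 to -0.36, and 9 of these 16 then had positive values. That scaling shifts all probe sets of an array alike, so it changes no value relative to the median. Relative to the median of all kept probe sets, 16 of the 16 were above 0 in the fit reported here and 14 after quantile normalization.

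**Figure D4:**
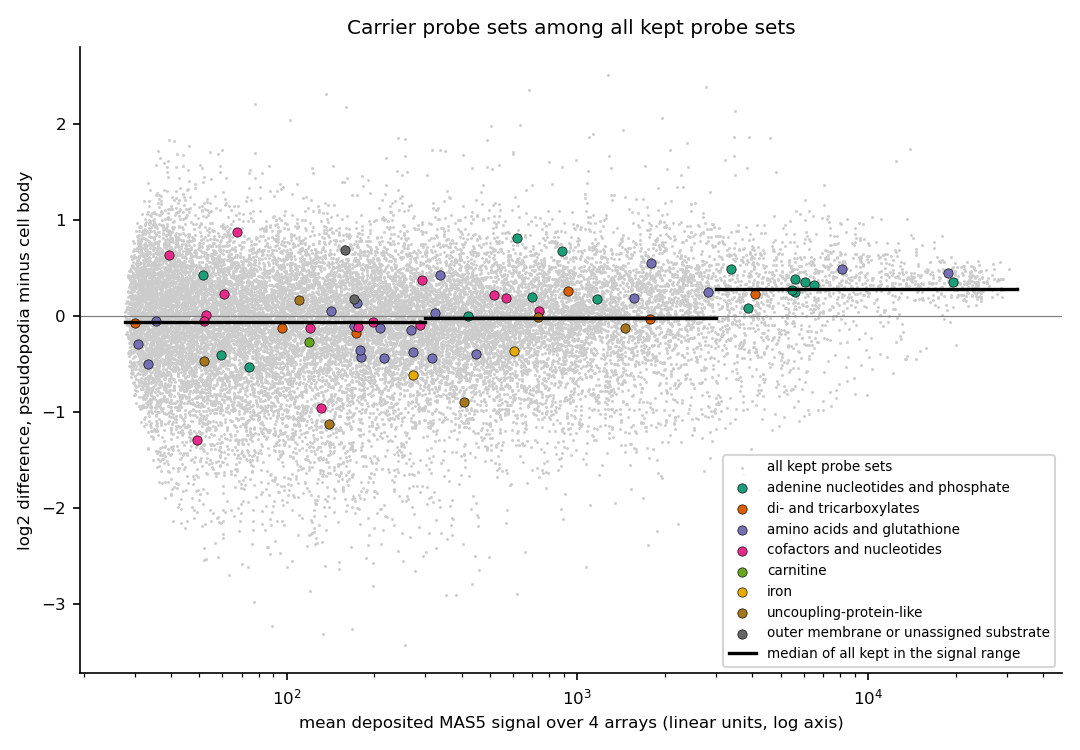
Log2 difference (pseudopodia minus cell body) against mean deposited MAS5 signal over 4 arrays (log axis) for all 22519 kept probe sets in grey and the 69 carrier probe sets coloured by substrate group, with black lines at the median of all kept probe sets in 3 signal ranges. The 11 carrier probe sets at 3000 or above lie above 0, around the median of 0.28 of all probe sets in that range.

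Genes that work with the carriers were read in the same fit, which called 1.08% of all kept probe sets higher and 3.32% lower. Of the family members with other symbols, Mtch2, an outer membrane relative of the carriers, had 1 of its 4 kept probe sets lower, 1430969_at, at -2.23 ± 0.30, with signals of 161.5 and 136.5 in cell bodies, against 21.5 and 16.7 in pseudopodia. The brightest Mtch2 probe set stood at 0.15 ± 0.20. None of the other 5 kept probe sets of this list, from Mtch1, Mtch2 and Ucp3, passed.

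Carrier proteins are imported through the TOM complex of the outer membrane, small chaperones between the membranes and the TIM22 complex of the inner membrane. On this route 1 of 25 kept probe sets, from 12 genes, was higher and none was lower, with 21 positive values and a median of 0.36 against -0.03 over all kept probe sets. By signal, the median was 0.47 over its 5 probe sets at 3000 or above, where that of all kept was 0.28, and 0.36 over its 17 between 300 and 3000, where that of all kept was -0.03. The probe set called was 1455357_x_at of Tomm20, an import receptor, at 0.79 ± 0.16 (limma adjusted p = 0.0437), with 6912.0 and 6819.0 in cell bodies, against 10533.3 and 13394.8 in pseudopodia. The other 5 probe sets of Tomm20 differed by 0.47 to 0.59 and did not pass. Timm8b, one of the small chaperones, stood at 0.81 ± 0.18 (limma adjusted p = 0.0512), and Tomm70a, the receptor that binds carrier precursors, at 0.87 ± 0.23 on its brightest probe set (limma adjusted p = 0.0727). The other kept probe sets of Tomm70a differed by less, at 0.23 (1417192_at, with overlapping arrays) and 0.51 (1426675_at). The 4 negative values were those of Timm29 (-0.48 and -0.78, each without overlap), Tomm40 (-0.18) and the dimmer probe set of Timm22 (-0.32). With the replicate block 7 of the 25 probe sets of this route were higher and 0 lower, against 6.84% and 11.3% of all kept probe sets.

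The ATP synthase, which uses the ADP and phosphate that carriers import, had 1 of 30 kept probe sets higher and none lower, with 25 positive values and a median of 0.38. At 3000 or above it was 0.40 over 22 of them, against 0.28 over all kept in that range. Under 300 it was -0.76 over 6, of which 2 were positive, against -0.07 over all kept. Dim probe sets of Atp5g2, Atpif1 and Atp5c1 stood at -1.04, -1.25 and -1.39, against 0.38, 0.70 and 0.33 on the brightest of each. The synthase probe set called higher was of Atp5j, at 0.79 ± 0.15 (limma adjusted p = 0.0387). Other mitochondrial transporters and channels had 0 of 28 higher and 1 lower, Slc8b1, the sodium/calcium exchanger of the inner membrane, at -1.36 ± 0.23 (limma adjusted p = 0.0302), with a list median of 0.21. Enzymes of the shuttles that carriers serve had 0 of 56 called in either direction by limma, and a median of 0.01. At an unadjusted p under 0.05, 5 were higher and 4 lower, against 8.66% and 13.3% of all kept probe sets. The 2 with the largest statistics were Cs, citrate synthase, at 0.48 ± 0.15 and Mdh1, cytosolic malate dehydrogenase, at -1.22 ± 0.39 on a dim probe set. The brighter kept probe sets of Mdh1 did not share that direction, at 0.66 (1436834_x_at), 0.48 (1454925_x_at) and -0.04 (1448172_at). With the replicate block the synthase had 14 higher and 2 lower, the transporters 9 and 3, and the enzymes 5 and 5. Over all kept probe sets that fit called 6.84% higher and 11.3% lower.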

How the data were processed

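RNA of 2 pseudopodia and 2 cell body samples was measured on Affymetrix Mouse430_2 arrays (name per the file headers) and grouped and numbered by the sample titles. Per the labels, the deposited values are intensity signals per probe set (linear units) from MAS5, a tool named in the submitters' processing notes; version and detection calls are not given in the sources used here. The values show a trimmed mean of 250.0 on every array (2% trimmed at each end). The other deposited files hold scanner settings, text with no measurement. Per the file headers, same-numbered arrays shared a scan day, and all arrays shared 1 chip lot and 1 scanner. Subtraction of mismatch probes adds noise at low signals, and fixation and its reversal can affect RNA integrity.

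Signals were rescaled to a trimmed mean of 500 and taken as log2(signal + 32), a pseudocount of 16 on the deposited scale, so folds of dim probe sets are understated. Probe sets with a mean log2 value at or above the median of the 45037 that are not controls were kept (22519). The test was limma 3.58.1 (R 4.3.3; lmFit and trended eBayes, two-sided), and p-values were adjusted by Benjamini-Hochberg across the 22519, with calls at 0.05. With 2 arrays a group the smallest exact permutation p is 0.333. Genes were named by the platform annotation (34958 probe sets with 1 symbol, 932 with several, 9211 unnamed); all 93 member symbols equalled those of RefSeq for their gene ID. No genome was used, so positions of probe sets were not analysed here.

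Replicate numbers pair the arrays, since arrays of 1 number carry 1 experiment code, per the series' design text, and 1 scan day. Over kept probe sets the replicate deviations of the fractions correlated at 0.243, and the 2 pairs' fraction differences at 0.554, as descriptions across probe sets that are not independent. A fit with this block was run beside the first.

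Members, companion lists (family members under other symbols, import route, other transporters and channels, shuttle enzymes, ATP synthase) and markers were chosen with earlier results of these data known. Named in full were members past the threshold or past the rule of size, the brightest gene of each substrate group, genes whose probe sets lay over 1 log2 unit apart, and in each companion list the members past the threshold or else the 2 of largest statistic; other members are added as description. The procedure was tested on simulated data (10 runs, 200 changed among 22519 probe sets), and 5.73% of calls were false. Alternatives were 4 scalings, 2 pseudocounts, 2 filters, no variance trend, the block, plain probe sets only and leaving out each array.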

Additional observations from a re-analysis of the deposited data

How the results depend on the processing

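Of the 69 carrier probe sets, 0 were called in either direction, and this changed in some of 15 alternatives (1, centring on the kept probe sets, chosen after seeing the data). Scaling on hybridization controls gave 2 lower, the stricter filter on dim probe sets gave 1 higher (Slc25a39), and the replicate block gave 7 higher and 4 lower. Leaving out 1 array gave 0 to 5 higher and 0 to 6 lower, and the lone array is then assumed to vary like the other fraction. The counts by size, 1 higher and 3 lower, became 2 higher after quantile normalization, 0 and 5 on hybridization controls, 0 higher with the larger pseudocount, 0 and 0 with the stricter filter, 0 higher with plain probe sets only, and 2 to 5 higher and 3 to 8 lower without 1 array, where fewer array pairs have to pass. The companion lists had 2 higher and 2 lower. They had 4 higher after median centring, 5 higher after centring on the kept probe sets, 0 higher after quantile normalization, 0 and 6 on hybridization controls, and 1 and 5 higher with the smaller and the larger pseudocount. They had 0 and 0 without the filter, 1 lower with the stricter filter, 0 and 0 without the variance trend, 35 and 11 with the replicate block, 1 higher with plain probe sets only, and 0 to 29 higher and 0 to 16 lower without 1 array (29 and 16 without pseudopodia replicate 1). With no variance trend, limma had 0 calls over the whole table, with 4487 at an unadjusted p under 0.05, 7 of them carriers.

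The carrier median of 0.01 was -0.32 on hybridization controls, where that of all kept probe sets was -0.36, and -0.02 to 0.17 without 1 array. With plain probe sets only, those without a letter suffix such as _x_at, it was -0.08, with 16 of 42 positive. It then lay below the median of -0.03 over all kept probe sets of any kind, where with all 69 it lay above. Many signs turned. Of the 69 carrier probe sets, 20 changed sign on hybridization controls, 15 after centring on the kept probe sets and 11 after quantile normalization. Without 1 array, 9 to 16 changed sign. Only the probe sets named in full are listed next. Slc25a30 (1420836_at) stood at 0.034 after centring on the kept probe sets and at -0.54 to 0.29 without 1 array. On hybridization controls Slc25a1 stood at -0.10, Slc25a46 (1448970_at) at -0.16, and Slc25a51 at -0.28 (1433816_at) and -0.11 (1454712_at). Without 1 array Slc25a46 ranged from -0.075 to 0.42 and Slc25a51 (1433816_at) from -0.17 to 0.27. The cause of these changes was not tested. The share of higher probe sets among all calls was 24.5%, 44.9% after centring on the kept probe sets and 3.25% on hybridization controls. The block changed no direction, since its estimates equal those without it. The 2 arrays per group and signals near background limit the dim members.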
